A study of Mus musculus with 6 samples.

Results

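The genes described here are 10 genes of microbial sensing measured in mouse embryonic fibroblasts (MEFs) before and after TNFα. They were taken by symbol, and the deposited table holds 10 of 10, among 21837 gene symbols in all. They comprise the receptors Tlr2, Tlr3 and Tlr4 with the co-receptor Cd14, the adaptors Myd88 and Ticam1, the kinases Irak2 and Ripk2, and the cytosolic sensors Nod1 and Nod2. Where a symbol had more than 1 transcript, the one with the highest mean value was used, which concerned Irak2 and Nod1.

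The RNA came from primary wildtype MEFs of strain C57BL/6x 129, taken from embryos of 13.5 days and passaged 4 times. One group was untreated (0 hr) and the others received 20 ng/ml of TNFα for 1.5, 6 or 24 hr, with 1 library per time. The label of the 24 hr library describes a ChIP extraction, although it is titled, and its source typed, as a transcriptome sample of that time. H3K4me3, a histone mark of active promoters, was profiled in untreated MEFs of the same kind with 1 ChIP-seq library beside 1 input library. With 1 library per time no test across replicates was possible, so no p-value is given and each fold change compares single libraries. Levels are in RPKM (reads normalised to transcript length and to the mapped reads of the library), so that genes can be compared within a library. The 2 columns of each library, R1 and R2, are not replicates, and their mean is given as the level. Whether the libraries came from separate cultures is not given in the sources used here.

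Toll-like receptors are membrane proteins that recognise microbial molecules. Tlr2 responds to bacterial lipoproteins, Tlr4 to lipopolysaccharide with the help of Cd14 and Ly96, and Tlr3 to double-stranded RNA within endosomes. Most Toll-like receptors signal through the adaptor Myd88 and the Irak kinases, whereas Tlr3 uses Ticam1 (also called TRIF) and Tlr4 uses both. Nod1 and Nod2 detect fragments of bacterial peptidoglycan in the cytosol and pass the signal to the kinase Ripk2. These routes end in the activation of NF-κB, the same transcription factor that TNFα activates through its own receptors.

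RefSeq promoter windows, from 250 bases before to 50 after the start, were found for 7 of the 10 genes, not for Cd14, Tlr4 and Ripk2. They were listed on GRCm38.p6 and placed on mm9, the build of the deposited files, by an exact match. Those of Tlr2, Tlr3, Myd88 and Ticam1 are shown up to 10 bases past the start, the first 3 because they hold all the motif matches and Ticam1 because its level was not higher after TNFα. Each is written 5′ to 3′ along the gene. Capitals mark matches to the κB consensus bound by NF-κB in Tlr2 and Tlr3, and in Myd88 to the core of the interferon-stimulated response element (ISRE, GAAANNGAAA) and to a TATA sequence (TATAAA).
Tlr2 (chr3:83645521-83645780, minus strand): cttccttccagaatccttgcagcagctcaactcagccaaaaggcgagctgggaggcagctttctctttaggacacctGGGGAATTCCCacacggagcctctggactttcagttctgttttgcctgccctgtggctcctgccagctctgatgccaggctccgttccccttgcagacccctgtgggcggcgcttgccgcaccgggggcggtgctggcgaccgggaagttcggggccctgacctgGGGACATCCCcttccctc
Tlr3 (chr8:46495725-46495984, minus strand): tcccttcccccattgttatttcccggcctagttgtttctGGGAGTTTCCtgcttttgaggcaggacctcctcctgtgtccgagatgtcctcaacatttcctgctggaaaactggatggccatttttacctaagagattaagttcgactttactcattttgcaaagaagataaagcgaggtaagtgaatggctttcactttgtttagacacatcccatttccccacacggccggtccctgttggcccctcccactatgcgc
Myd88 (chr9:119249127-119249386, minus strand): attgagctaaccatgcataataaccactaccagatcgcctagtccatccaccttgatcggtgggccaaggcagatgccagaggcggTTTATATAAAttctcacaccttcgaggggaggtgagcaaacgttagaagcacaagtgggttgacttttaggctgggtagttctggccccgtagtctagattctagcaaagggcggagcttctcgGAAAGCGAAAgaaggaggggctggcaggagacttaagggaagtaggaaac
Ticam1 (chr17:56416181-56416440, minus strand): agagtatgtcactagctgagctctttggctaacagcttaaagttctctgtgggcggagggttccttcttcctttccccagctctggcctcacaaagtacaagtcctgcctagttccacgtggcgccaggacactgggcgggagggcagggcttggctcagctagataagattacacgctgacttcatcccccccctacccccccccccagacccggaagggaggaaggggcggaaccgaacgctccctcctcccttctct

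In Tlr2 the κB consensus matched 3 times. A pair of these matches overlapped, starting 173 and 172 bases before the start, and the last began 8 bases before it. Starts here are those of RefSeq, which can differ from the GENCODE starts used for the peaks below. For Tlr2 they were 83645530 and 83645689 on mm9, so the last match lies downstream of the GENCODE start. The single κB match of Tlr3 began 211 bases before its start. The ISRE core of Myd88 began 40 bases before the start, and its 2 TATA matches overlapped on opposite strands, beginning 164 and 160 bases before it. No match to these motifs or to the AP-1 site (TGANTCA) was found on either strand in the windows of Ticam1, Irak2, Nod1 or Nod2, where Nod1 has a window for each of its 2 starts. Among all 32851 windows of the same length, 8.46% held the κB consensus, 3.44% the ISRE core, 13.6% TATAAA and 7.81% the AP-1 site. Such matches describe letters in a window and do not show binding.

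The libraries differed as a whole. Across 6571 coding genes with a mean RPKM above 1, the median log2 ratio to untreated was 0.45, -0.74 and 0.11 at 1.5, 6 and 24 hr. Values are given as deposited, and beside them after a median of ratios scaling, which centres the ratios of all transcripts and added -0.39, 0.75 and -0.04 on the log2 scale. As a check of the treatment, Nfkbia, the NF-κB inhibitor IκBα, had an RPKM of 3.73, 84.2, 31.0 and 67.4 at 0, 1.5, 6 and 24 hr. The 9 fibroblast markers were all above 0 in each library, with 514 RPKM for Col1a1 in untreated cells. Of the 8 endothelial and epithelial markers, Epcam was listed at 0 throughout, and only Krt18 exceeded an RPKM of 0.1.

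Ripk2, Tlr2 and Cd14 were the genes with the highest ratios at 1.5 hr, and they were more than 2-fold above untreated at every time. Without a filter on level, 6 of the 10 genes were at least 2-fold higher at 1.5 hr, namely these 3 with Tlr3, Tlr4 and Myd88. At 6 hr only Ripk2, Tlr2 and Cd14 were, and at 24 hr these 3 and Tlr3. No gene was 2-fold lower at 1.5 hr. At 6 hr Ticam1 was at least 2-fold lower, and at 24 hr Nod2. Among 16757 detected coding genes, 28.8% were at least 2-fold higher after 1.5 hr, 4.92% after 6 hr and 17.5% after 24 hr, and 17.0%, 38.0% and 21.6% were at least 2-fold lower. Genes at 0 without TNFα that had a value later were counted as higher in these shares, and genes that fell to 0 as lower. The median log2 ratio of the 10 genes was 1.26, -0.39 and 0.88 at the 3 times, beside 0.38, -0.75 and 0.04 over the detected coding genes. The median over the detected coding genes left out those at 0 in either library compared.

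After the median of ratios scaling, 4 of the 10 genes were at least 2-fold higher at each time. They were Ripk2, Tlr2, Cd14 and Tlr4 at 1.5 hr, and Ripk2, Tlr2, Cd14 and Tlr3 at 6 and 24 hr. The shares of detected coding genes were then 18.1%, 10.8% and 16.6%, and for 2-fold lower genes 23.6%, 15.8% and 22.4%. Nod2 at 24 hr was then the only one of the 10 genes at least 2-fold lower at any time. Under the study's own criterion, which also asks for a mean RPKM above 1, only Ripk2, Cd14, Ticam1, Myd88 and Irak2 could be counted. Of these, 3 were higher at 1.5 hr (29.9% of coding genes that pass), 2 at 6 hr (1.73%) and 2 at 24 hr (16.8%). Ripk2, Cd14 and Irak2 had an untreated RPKM of 0.272, 0.732 and 0.789, so they pass only through the libraries after TNFα. The filter thus favours genes that rose, and the counts of higher genes are in part set by it. Ticam1 at 6 hr was the only lower one, where the shares of lower coding genes were 7.82%, 31.6% and 12.6% at the 3 times.

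**Figure D1:**
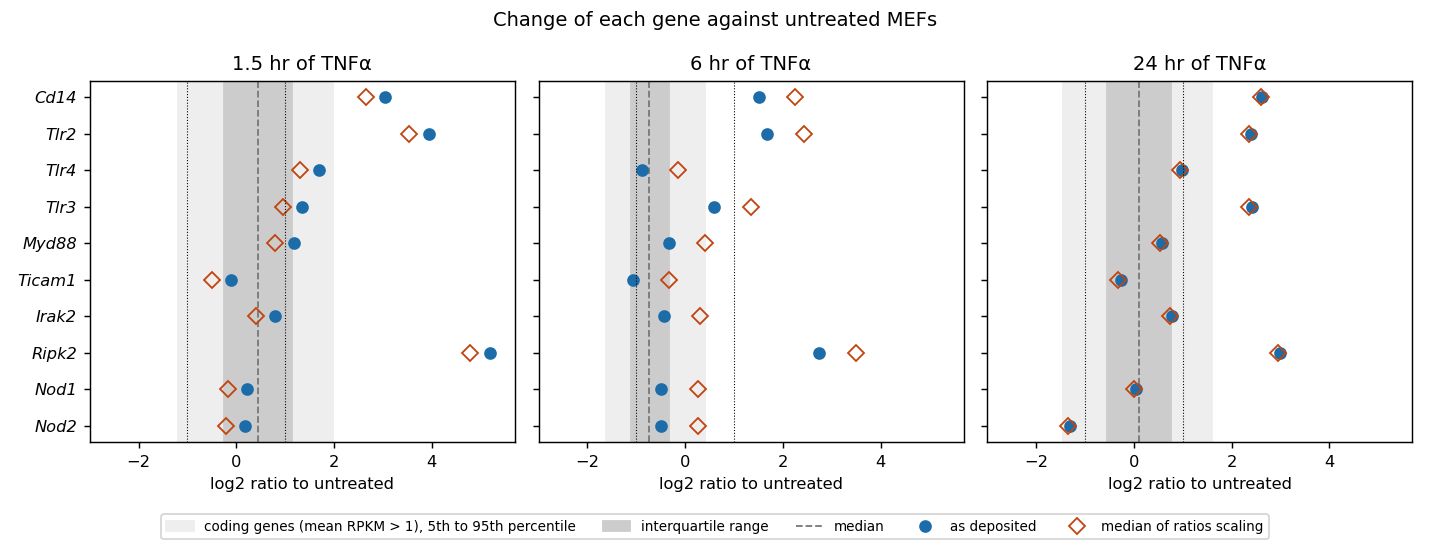
Log2 ratio to the untreated library of each of the 10 genes at 1.5, 6 and 24 hr of TNFα, as deposited (filled circles) and after the median of ratios scaling (open diamonds), over the range of 6571 coding genes with a mean RPKM above 1 (grey bands and dashed median). Dotted lines mark a 2-fold change. The bands and the median are as deposited and were not scaled, so only the filled circles can be read against them. As deposited, Ripk2, Tlr2 and Cd14 lie above the 95th percentile of coding genes with a mean RPKM above 1 at each time. Tlr3 does so at 6 and 24 hr. Tlr3 and Tlr2, at a mean RPKM of 0.0598 and 0.963, are not themselves among those coding genes. Over all detected coding genes, 4.92% were at least 2-fold higher at 6 hr, where Tlr3 was 1.51-fold higher.

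The 3 receptors and Cd14 began low and differed in their later course. Cd14, which presents lipopolysaccharide to Tlr4 and also assists Tlr2 and Tlr3, had an RPKM of 0.732 before TNFα and of 6.02, 2.08 and 4.52 after 1.5, 6 and 24 hr. Its level was 8.23-fold higher at 1.5 hr and still 6.17-fold higher at 24 hr, and at each time its ratio exceeded that of at least 99.1% of the coding genes with a mean RPKM above 1. At 24 hr the level was 75.0% of that at 1.5 hr, and after the median of ratios scaling these 2 times differed by -0.06 on the log2 scale. From 6 hr on, Cd14 had the highest level of the 10 genes, although its R1 and R2 values at 6 hr overlapped those of Ripk2.

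Tlr2 had an RPKM of 0.156, 2.38, 0.499 and 0.816 at 0, 1.5, 6 and 24 hr. The 1.5 hr library was thus 15.3-fold above the untreated one (log2 ratio 3.94, with 3.93 in R1 and 3.94 in R2). The level at 6 hr was 4.77-fold below that at 1.5 hr, and 3.21-fold above untreated. Unlike Cd14, Tlr2 had at 24 hr only 34.3% of its 1.5 hr level. After scaling, Tlr2 differed from its 1.5 hr level by -1.12 at 6 hr and by -1.19 at 24 hr on the log2 scale. Its scaled log2 ratio to untreated at 6 hr was 2.43. Its mean RPKM over the 4 libraries was 0.963, just under the study's limit of 1, so that criterion leaves the gene out.

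Tlr4 was listed at an RPKM of 0.0395 in untreated MEFs and of 0.127, 0.0214 and 0.0781 at the later times. It was 3.22-fold higher at 1.5 hr. At 6 hr its log2 ratio was -0.88 as deposited and -0.14 after scaling, a difference as deposited that lay close to the median shift of that library (-0.74). Ly96, the partner that Tlr4 needs to bind lipopolysaccharide, stood well above it, with an RPKM of 0.664, 0.963, 0.549 and 1.12.

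As deposited, Tlr3 was the only one of the 10 genes with its highest level at 24 hr. By the median of ratios scaling, Irak2 was highest at 24 hr too (log2 ratio 0.73). The RPKM of Tlr3 was 0.0231 untreated and then 0.0586, 0.0349 and 0.122. The last value was 5.30-fold higher than untreated and stood at 209% of its 1.5 hr level. After scaling, its log2 ratio was 0.95, 1.34 and 2.36 at the 3 times, so it lay higher at each later time, whereas as deposited the 6 hr value was below that at 1.5 hr.

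Tlr3, Tlr4 and Nod2 were measured at very low levels. The table holds no reads, so the depth behind each value is unknown and no interval is given. In each column, 68.0% to 71.9% of low genes had values within 0.1 of a whole multiple of 1 step, between 0.801 and 1.11 deposited units per kb of transcript. What a step stands for is not given in the sources used here. With the annotated transcript lengths, Tlr3 rested on 9 such steps in each untreated column and on 57 and 55 at 24 hr, and Tlr4 on 16 and 13 untreated and on 7 and 6 at 6 hr. Among coding genes with a mean RPKM from 0.02 to 0.1, the log2 ratios of R1 and R2 differed by a median of 0.22 at 24 hr, and by up to 1.31 for 95% of them. For Tlr3 at 24 hr they were 2.43 and 2.38.

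**Figure D2:**
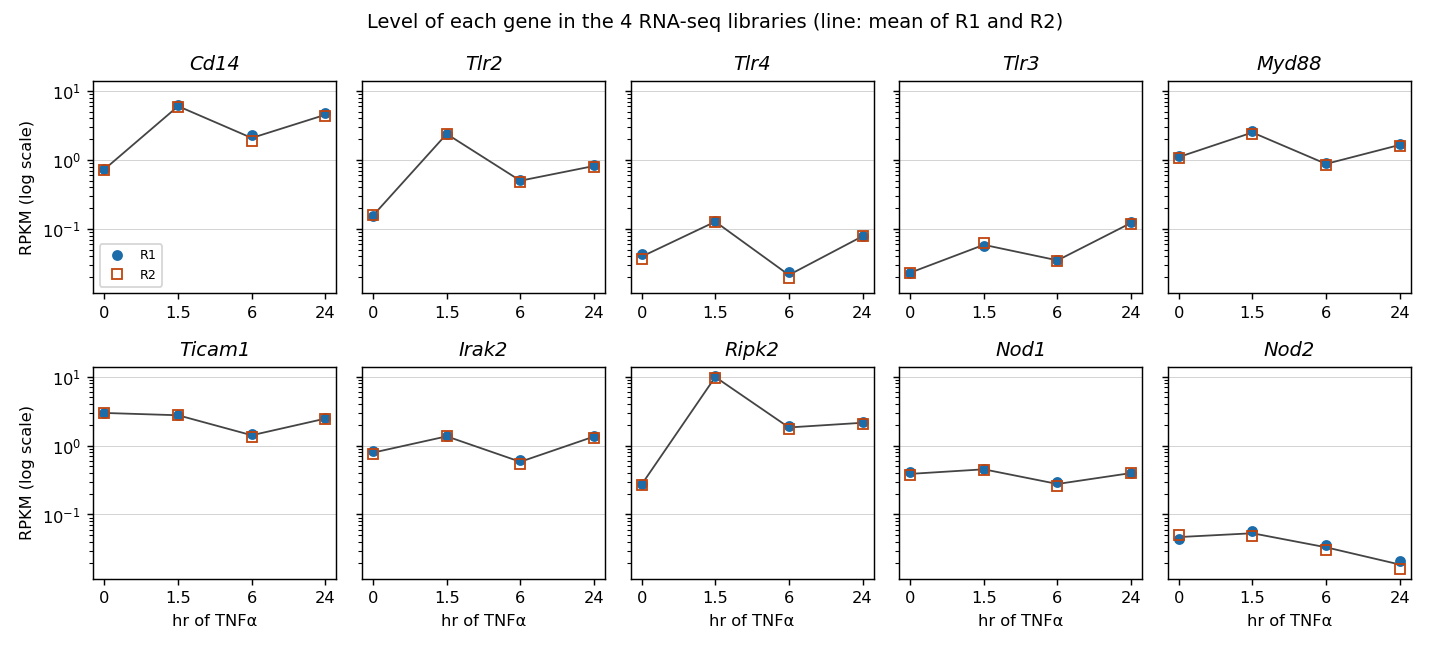
RPKM on a log scale for each of the 10 genes in the untreated library and after 1.5, 6 and 24 hr of TNFα (1 library per time), with the R1 column as circles, the R2 column as squares and their mean as a line. As deposited, most genes are highest at 1.5 hr, Tlr3 is highest at 24 hr, Ticam1 in the untreated library, and Nod2 is lowest at 24 hr. By the median of ratios scaling, which is not drawn, Irak2 is also highest at 24 hr, and Nod1 and Nod2 are highest at 6 hr.

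The 2 adaptors had the highest levels of the 10 genes before treatment and differed from each other after it. Myd88, used by Tlr2, Tlr4 and the interleukin 1 receptors, had an RPKM of 1.10, 2.50, 0.875 and 1.65 at 0, 1.5, 6 and 24 hr. It was 2.27-fold higher at 1.5 hr as deposited, and after scaling its log2 ratio was 0.79, 0.41 and 0.54, above 0 but under 2-fold at each time. The annotated span of Myd88 overlaps that of Acaa1a on the opposite strand. The libraries were directional, but whether counting used strand is not given in the sources used here.

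Ticam1, the adaptor of Tlr3 and of the endosomal signal of Tlr4, had an RPKM of 2.97, 2.75, 1.41 and 2.46. It was the highest of the 10 genes in the untreated library and was highest there among its own 4 values. The 6 hr library was 2.11-fold below untreated, which became a log2 ratio of -0.33 after scaling. Its scaled ratio was negative at each time (-0.50 at 1.5 hr and -0.32 at 24 hr). At 1.5 hr, 30.2% of coding genes with a mean RPKM above 1 had a lower ratio than Ticam1, compared with 76.2% for Myd88.

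Ripk2, the kinase downstream of Nod1 and Nod2, had the largest ratio of the 10 genes at every time. Its RPKM was 0.272 in untreated MEFs and 9.88, 1.83 and 2.14 after TNFα. Its annotated span overlaps AL807379.1 on the same strand. The level was 36.4-fold higher at 1.5 hr, a ratio above those of 99.9% of coding genes with a mean RPKM above 1, and 6.73-fold and 7.87-fold higher at 6 and 24 hr. Most of the difference was at 1.5 hr, with 18.5% of the 1.5 hr level at 6 hr and 21.6% at 24 hr. After scaling, it was -1.30 lower at 6 hr than at 1.5 hr and -1.86 lower at 24 hr on the log2 scale.

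Of 6570 other coding genes with a mean RPKM above 1, the 3 whose log2 ratios at the 3 times lay nearest to those of Ripk2 were Fas, Gbp1 and Vcam1. Fas, a death receptor, had log2 ratios of 4.33, 2.44 and 2.72, at a distance of 0.94. Gbp1, a guanylate-binding protein, had 5.41, 3.26 and 3.77 (distance 0.97), and Vcam1, an adhesion molecule for leukocytes, had 4.42, 2.26 and 3.48 (distance 1.04). The distance is the Euclidean one over 3 ratios that share the untreated library, and it is a description only. Ripk2 was taken for its large ratio, so the genes nearest to it have large ratios by construction. Fas, Gbp1 and Vcam1 had an untreated RPKM of 0.187, 0.0884 and 0.539, and passed the filter only through the libraries after TNFα.

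Irak2, a kinase that prolongs signalling from Myd88, stayed below a 2-fold change. Its RPKM was 0.789, 1.36, 0.581 and 1.35, so that the 1.5 hr and 24 hr levels were nearly equal (98.8%). The log2 ratios were 0.79, -0.44 and 0.77 as deposited and 0.40, 0.30 and 0.73 after scaling, where all 3 were positive. The other transcript of Irak2 in the table had log2 ratios of 0.73, -0.49 and 0.71.

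The peptidoglycan sensors themselves had ratios far from that of Ripk2. Nod1 had an RPKM of 0.388, 0.452, 0.277 and 0.399, with scaled log2 ratios between -0.17 and 0.26. Nod2 was listed at 0.0470, 0.0534, 0.0334 and 0.0188. The 24 hr level of Nod2 was 2.50-fold below untreated, with a log2 ratio of -1.04 in R1 and -1.63 in R2 and only 11 and 8 steps behind it. Scaling left this value nearly as it was (-1.36). In the 1.5 hr library, Ripk2 stood at 9.88 RPKM beside 0.452 for Nod1 and 0.0534 for Nod2.

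The make-up of the group within a library does not depend on the scaling between libraries. The 10 levels summed to an RPKM of 6.52 untreated and to 25.6, 7.64 and 13.5 after TNFα. Ticam1 made up 45.6% of the untreated sum and 10.8% of that at 1.5 hr, while Ripk2 went from 4.17% to 38.6% and then to 23.9% and 15.8%. Cd14 went from 11.2% to 23.5%, 27.2% and 33.4%. Tlr2 reached 9.30% at 1.5 hr, and Tlr3, Tlr4 and Nod2 each stayed below 1% at all times. Neighbours in the order of levels had R1 and R2 values that overlapped for Myd88 and Tlr2 at 1.5 hr, Cd14 and Ripk2 at 6 hr, and Tlr3 and Nod2 at 1.5 and 6 hr.

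In untreated MEFs, 8 of the 10 genes had an H3K4me3 peak within 1 kb of an annotated start, and each of these peaks covered a start. Over 19599 coding genes the share was 54.1%. It was 91.3% for coding genes with an untreated RPKM above 1, 74.9% from 0.1 to 1 and 34.8% from 0.02 to 0.1. By these levels, Myd88 and Ticam1 belong to the first of these classes, Irak2, Cd14, Nod1, Ripk2 and Tlr2 to the next, and Nod2, Tlr4 and Tlr3 to the last. The genes without a peak were Tlr4 (chr4:66488618-66591318 on mm9), whose nearest peak lay 1219991 bases from its start, and Nod2 (chr8:91171214-91212373), whose nearest one lay 44542 bases away.

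Ripk2, Tlr2 and Cd14, the genes with the highest ratios at 1.5 hr, carried the mark in untreated cells. The peak at Ripk2 (chr4:16088176-16092076 on mm9) held 1208 tags with a fold enrichment of 43.3. That at Tlr2 (chr3:83644225-83646202) held 598 tags with a fold enrichment of 21.4, lower than in all but 2.73% of the 11157 peaks, and both of its κB regions lie within it. The Cd14 peak (601 tags, enriched 26.0-fold) had its summit 831 bases past the start, which is the farthest among the 8. Tlr3, with the lowest untreated RPKM of the 10 genes, had 268 tags at a fold enrichment of 40.5 in its peak (chr8:46494769-46496653), so the mark was found at a start with little RNA.

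The highest tag count and the broadest peak were at Myd88, with 1672 tags over 6248 bases (chr9:119246907-119253154), from -4016 to 2231 bases around the start. This peak runs past the upstream end of the annotated Myd88 span (119250529), which Acaa1a overlaps on the opposite strand. The share of the peak that belongs to either gene was not tested. The peaks at Ticam1 (698 tags, chr17:56414407-56417682), Nod1 (680 tags, chr6:54921037-54923630) and Irak2 (432 tags, chr6:113588034-113589868) had fold enrichments of 31.6, 40.0 and 46.5. The median over all peaks was 1049 tags and a fold enrichment of 45.5. The summit at Nod1 lay 11 bases upstream of the more distal of its 2 annotated starts. Only untreated cells were profiled, so a change of the mark with TNFα was not analysed here.

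**Figure D3:**
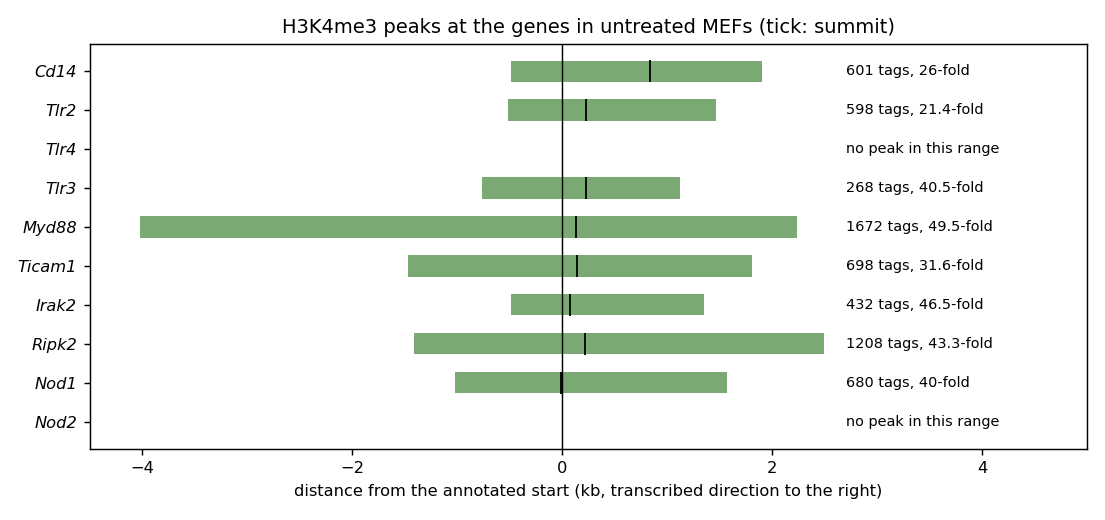
H3K4me3 peaks of untreated MEFs drawn to scale against the distance from the annotated start of each gene in kb, with upstream to the left. Bars show the peak, ticks its summit, and the text gives its tags and fold enrichment. Peaks cover the start of 8 genes, the broadest at Myd88, and none lies near Tlr4 or Nod2. The Myd88 peak runs upstream past the annotated span of Myd88, which Acaa1a overlaps on the opposite strand.

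Genes of macrophages and other leukocytes were present in these cultures. All 9 listed markers were above 0 in each library, and their summed RPKM was 74.3 untreated and 243, 46.9 and 119 after TNFα. Without Lyz2, the lysozyme gene of myeloid cells, the sums were 48.0, 71.4, 15.5 and 34.8. Lyz2 itself was listed at 26.4, 171, 31.5 and 84.0. Tlr2, Tlr4 and Cd14 are expressed by macrophages as well as by fibroblasts, and in bulk RNA fewer cells of a type and less RNA per cell cannot be told apart.

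Of the 9 markers, 4, 0 and 1 were at least 2-fold higher at 1.5, 6 and 24 hr. At least 2-fold lower were 0, 6 and 2. Over the detected coding genes, 28.8%, 4.92% and 17.5% were higher and 17.0%, 38.0% and 21.6% lower. After the median of ratios scaling, 2, 1 and 1 markers were higher and 0, 1 and 2 lower. The shares were then 18.1%, 10.8% and 16.6% higher and 23.6%, 15.8% and 22.4% lower. Beside the log2 ratios of Tlr4 (1.69, -0.88 and 0.98), Csf1r and Fcgr1 were slightly below untreated at 1.5 hr (-0.04 and -0.15). As deposited, all markers but Lyz2 were below untreated at 6 hr, and after scaling Ptprc (0.11) was above it too. Csf1r, Cd68, Fcgr1 and Laptm5 were below untreated at 24 hr (-1.25, -0.96, -1.90 and -0.85). Relative to Tyrobp, a signalling adaptor of myeloid cells, in the same library, the level of Cd14 was 0.0684 untreated and 0.260, 0.401 and 0.312 at 1.5, 6 and 24 hr. That of Tlr2 was 0.0145 and then 0.103, 0.0961 and 0.0563. Relative to Lyz2, the largest of the markers, Cd14 was 0.0278 untreated and 0.0351, 0.0661 and 0.0538 later, and Tlr2 was 0.00590 and then 0.0139, 0.0159 and 0.00972. Cd14 and Tlr2 were therefore higher against either marker at each time after TNFα. Tlr4 differed from them, as its log2 ratio to untreated was below that of Lyz2 at each time. It was above that of Tyrobp at each time. Tlr4 was thus lower than untreated against Lyz2 and higher against Tyrobp. The part of leukocytes in the levels of these genes was not tested.

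**Figure D4:**
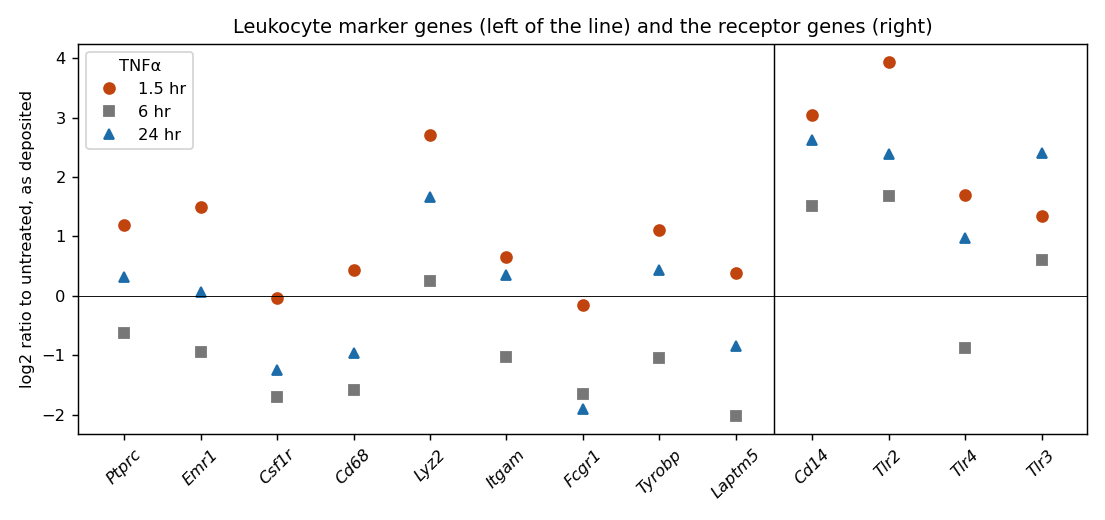
Log2 ratio to the untreated library, as deposited, of 9 leukocyte marker genes (left of the vertical line) and of Cd14, Tlr2, Tlr4 and Tlr3 (right) at 1.5 hr (circles), 6 hr (squares) and 24 hr (triangles) of TNFα. Cd14 and Tlr2 are higher than untreated at all 3 times. As deposited, 8 of the 9 markers are below untreated at 6 hr and Lyz2 is not. After the median of ratios scaling, which is not drawn, Ptprc (0.11) is also above untreated at 6 hr. Only Laptm5 (-1.28) is then at least 2-fold lower at that time.

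Of 62 further genes of these pathways, 61 were in the table, and without a filter on level 30, 5 and 13 of them were at least 2-fold higher at the 3 times. At least 2-fold lower were 5, 15 and 10. Over all detected coding genes the shares were 28.8%, 4.92% and 17.5% higher and 17.0%, 38.0% and 21.6% lower. After the median of ratios scaling these counts became 19, 7 and 12 higher and 7, 7 and 10 lower, beside 18.1%, 10.8% and 16.6% higher and 23.6%, 15.8% and 22.4% lower over those coding genes. Both sets of shares are the background for each list below. The median log2 ratio of the 61 genes as deposited was 0.99, -0.52 and 0.36, beside 0.38, -0.75 and 0.04 over the detected coding genes. The latter left out genes at 0 in either library compared, whereas the former kept those at 0 in only a single library, as extreme ratios. The scaled median of the 61 genes was 0.60, 0.22 and 0.32, with the sign at 6 hr turned. The ratios of named genes below are as deposited. At 6 hr, scaling made those of Hsp90b1, Tollip, Map3k7, Tab2, Tab3, Traf3, Ddx58 and Tmem173 positive, and at 1.5 hr it took Hsp90b1 (0.87), Tab3 (0.75), Traf3 (0.92) and Tmem173 (0.68) under 2-fold. None of the other 9 Toll-like receptors reached a mean RPKM of 1. Of these 9, 5, 1 and 0 were at least 2-fold higher at the 3 times, with Tlr12 counted from a level of 0, and 0, 5 and 1 lower. After scaling, 3, 1 and 0 were higher and 0, 3 and 1 lower.

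Of 7 receptor partners, 2, 0 and 1 were at least 2-fold higher at the 3 times and 0, 1 and 0 lower, and after scaling 0, 1 and 1 were higher and 0 lower at each time. Among them Hsp90b1, the endoplasmic reticulum chaperone gp96 on which most Toll-like receptors depend for folding, was the one with a mean RPKM above 1 and a 2-fold change, with log2 ratios of 1.26, -0.19 and 0.55. Of 6 other adaptors and inhibitors of the receptor family, 1, 0 and 1 were higher and 2, 1 and 3 lower, with the same counts after scaling. The one that met both criteria was Tollip, which restrains Irak signalling, with 1.71, -0.16 and 1.11. Tirap, the bridging adaptor of Tlr2 and Tlr4, had 0.30, 0.03 and 0.10.

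Of 17 downstream kinases, TRAFs and their partners, 9, 0 and 3 were at least 2-fold higher at the 3 times, and 1, 2 and 1 lower. After scaling, 4, 0 and 3 were higher and 1, 1 and 1 lower. Genes of the TAK1 kinase complex differed in direction at 1.5 and 24 hr, and at 6 hr all 4 were below untreated as deposited. After scaling, the 6 hr values were 0.66 for Map3k7, 0.49 for Tab2, 0.04 for Tab3 and -0.55 for Tab1. Their direction then differed at 6 hr as well. Map3k7, the kinase TAK1, had log2 ratios of 1.65, -0.08 and 1.12, and its partner Tab2 had 1.73, -0.26 and 1.34. Tab3, a partner named for completeness at a mean RPKM of 0.135, had 1.14, -0.71 and 0.71. Tab1, a further partner, had -1.18, -1.30 and -1.44, from an RPKM of 4.16 down to 1.53 at 24 hr. Traf3, which acts downstream of Ticam1, had 1.31, -0.19 and 0.84.

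Of 15 NOD and inflammasome genes, 9, 3 and 5 were at least 2-fold higher, and 2, 4 and 5 were lower. After scaling, 8, 4 and 4 were higher and 4, 2 and 5 lower. Birc3, a ubiquitin ligase that acts with Ripk2, had log2 ratios of 3.30, 1.32 and 2.43. Tnfaip3 (A20), which removes ubiquitin from Ripk2 and other signalling proteins, had 5.81, 3.31 and 4.39. Casp4, the sensor of cytosolic lipopolysaccharide (caspase 11 of the mouse), had 4.09, 2.13 and 3.55 at a mean RPKM of 0.775, and was chosen after its values were seen.

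Of 7 RIG-I-like and nucleic acid sensors in the table, 4, 1 and 3 were at least 2-fold higher and 0, 2 and 0 lower, and after scaling 3, 1 and 3 were higher and 0 lower at each time. Ddx58, the RNA sensor RIG-I, had log2 ratios of 1.51, -0.13 and 1.13, and Tmem173, the adaptor STING, had 1.07, -0.46 and 0.61. Mavs, the adaptor of RIG-I, had 0.01, -1.08 and -0.06, and Trim25, a ubiquitin ligase of the same route, had 0.36, -1.04 and -0.04. After scaling the 6 hr values of Mavs and Trim25 were -0.33 and -0.30. Zbp1, a nucleic acid sensor also chosen after its values were seen, had its highest level at 24 hr as Tlr3 did, with 1.90, 1.52 and 3.25 at a mean RPKM of 0.524.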

How the data were processed

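RNA-seq libraries of 4 conditions and 1 H3K4me3 ChIP-seq library were used. Per the labels and methods, the authors mapped RNA reads to mm9 with TopHat and computed RPKM per RefSeq transcript with their own script. The deposited RPKM carry a scale of their own, so all 8 columns were divided by 85.6, the median ratio to the published values of the same transcripts over 5166 pairs. ChIP reads were mapped with Bowtie, and MACS gave the deposited peak list with counts of tags, an FDR in percent, a fold enrichment over input, a score on a −log10 scale and a coverage signal in tags per base, of which the score and the signal were not used here.

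A change was called at 2-fold without a pseudocount, and the study's filter on a mean RPKM above 1 was applied where stated. Library columns were named by the study's list of sequencing depths. Annotated starts came from GENCODE on mm9, promoter windows and sequences from RefSeq (GRCm38.p6). Genes named from the wider lists had a mean RPKM above 1 and a 2-fold change, up to the 4 largest per list. Nfkbia was named as a check of the treatment, and Ly96, Tirap, Tab3, Tlr12, Casp4, Zbp1 and marker genes for context. Members and lists were chosen with earlier results of these data known. A planned comparison of protein sequences was not run. Only the scalings and the 2-fold calls were tested on simulated data, for coding genes with a mean RPKM above 1. Genes at low level, the peak overlaps and the motif search were not part of that test. Python 3.11.15, numpy 2.4.6, pandas 2.3.3 and matplotlib 3.10.9 were used. Alternatives were other scalings (common sum, median of ratios over all or over coding transcripts), pseudocounts of 0.1 and 1 RPKM, filters, fold thresholds, single columns and peak windows. All of the 10 genes are reported whether or not they passed a filter.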

Additional observations from a re-analysis of the deposited data

Results flagged for a closer look

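Tlr4 and Myd88 were taken up because their log2 ratios at 1.5 and 6 hr had opposite signs in both columns, with one of them past 2-fold. Tlr4 had a log2 ratio of 1.69 at 1.5 hr and -0.88 at 6 hr. Myd88 had 1.18 at 1.5 hr and -0.33 at 6 hr. With 1 library at each time, the difference was not tested. The median over coding genes with a mean RPKM above 1 also had opposite signs at these times (0.45 and -0.74), and after the median of ratios scaling the values at 6 hr were -0.14 for Tlr4 and 0.41 for Myd88. The part of the whole-library shift in these differences was not tested further.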

How the results depend on the processing

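None of the 15 log2 ratios of at least 2-fold changed sign under any alternative. For the scalings and pseudocounts this was fixed by construction. No scaling added more than 0.83 in size on the log2 scale, and a pseudocount cannot turn a sign. Of all 30 ratios of the 10 genes, 6 or 7 changed sign under the 3 other scalings, all of them under 2-fold, as the size of the scalings requires. Scaling to a common sum took 2 of the 15 under 2-fold, the median of ratios over all or over coding transcripts 3 each, a pseudocount of 0.1 RPKM 4 and a pseudocount of 1 RPKM 9, and neither column alone took any. The 3 other scalings lowered the count of the 10 genes 2-fold lower at 6 hr from 1 to 0, because Ticam1 moved with its library. A fold threshold of 1.5 gave 2 and one of 3 gave 0 at 6 hr, and a threshold of 3 also gave 0 lower at 24 hr. With a mean RPKM above 1, 3 genes were higher at 1.5 hr and 2 at 24 hr, and 0 were lower at 24 hr, as with a filter at 0.1 or a pseudocount of 0.1. A pseudocount of 1 RPKM gave 3, 1 and 2 higher at 1.5, 6 and 24 hr and 0 lower at 6 and 24 hr. The count of genes with an H3K4me3 peak was 8 under each window and FDR tried and 6 at a fold enrichment of at least 30.

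For the 61 further genes, the count higher at 1.5 hr (30) became 19 and 18 with the median of ratios over all and over coding transcripts, 15 at 3-fold, 10 with a mean RPKM above 1, 17 with a pseudocount of 0.1 and 6 with one of 1. The count lower at 1.5 hr (5) became 2, 1, 3, 2 and 0 at 3-fold, with filters at 1 and 0.1, and with pseudocounts of 0.1 and 1. Higher at 6 hr (5) became 3 at 3-fold, 2 with a filter at 1 and 0 with a pseudocount of 1. Lower at 6 hr (15) became 7 under each of the 3 other scalings, 28 at 1.5-fold, 7 at 3-fold, 3 and 7 with filters at 1 and 0.1, and 4 and 0 with pseudocounts of 0.1 and 1. Higher at 24 hr (13) became 22 at 1.5-fold, 5 at 3-fold, 6 with a filter at 1, and 8 and 2 with the pseudocounts. Lower at 24 hr (10) became 1 and 6 with the filters, and 5 and 1 with the pseudocounts. The causes were not tested beyond the construction of each alternative. No paired analysis was possible because each time has 1 library.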
